A study of Mus musculus with 6 samples.

Results

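The genes described here prepare peptides for MHC class I molecules: the peptide transporter chains Tap1 and Tap2, the loading factor tapasin (Tapbp), the class I light chain B2m, the inducible proteasome subunits Psmb8, Psmb9 and Psmb10, the proteasome activator chains Psme1 and Psme2, and the class I transactivator Nlrc5. They were chosen by name, taking every probe set that the platform annotation assigns to exactly 1 of these 10 symbols, which gave 15 probe sets of 9 genes among 34945 such probe sets of 18193 genes in the whole table. The only probe set for Psme2 is annotated with Psme2b as well, so no value is given for Psme2. RNA came from mouse CD4+ T cells of spleen and lymph nodes, cultured in vitro, and was hybridised to 6 oligonucleotide arrays in 3 groups of 2, labelled Control, RA and Ro. The series title gives retinoic acid, a metabolite of vitamin A, as the meaning of RA. The labels do not expand Ro, and no strain, age, dose or treatment of the RA and Ro cultures is given. A culture protocol is given for Control replicate 2 alone: 5 days with human IL-2 and TGF-b1, mouse IL-6, IL-1b, IL-23, IL-21 and TNF-a, and blocking antibodies against IL-4 and interferon gamma. Nothing in the labels says that replicates are separate cultures or animals, so every p-value measures the spread between these samples only, which may be technical.

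Class I molecules show the cell surface short peptides cut from proteins inside the cell, so that cytotoxic T cells can inspect them. The proteasome cuts the proteins, and under interferon gamma its catalytic subunits Psmb6, Psmb5 and Psmb7 are replaced during assembly by Psmb9, Psmb8 and Psmb10, which yields the immunoproteasome. The Tap1 and Tap2 products form the pump that carries peptides into the endoplasmic reticulum, tapasin holds the empty class I heavy chain with B2m at that pump, and Nlrc5 switches on many class I pathway genes at their promoters. Lymphocytes are known to hold much immunoproteasome even at rest.

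Some of these genes share control sequence. In the RefSeq gene table of assembly GRCm38.p6, Psmb9, Tap1, Psmb8 and Tap2 follow each other with no other listed gene starting between them, and Tap1 and Psmb9 are read in opposite directions from start sites with 225 bases between them. Those bases are shown because both genes are read outward from them, and the 250 bases before the start site of B2m are shown beside them because B2m differed least between RA and Ro in signal. Both come from the RefSeq promoter table of GRCm38.p6, on the plus strand, at chr17:34187331-34187555 (Tap1 to the right, Psmb9 to the left) and chr2:122147437-122147686.
Tap1 and Psmb9 shared promoter: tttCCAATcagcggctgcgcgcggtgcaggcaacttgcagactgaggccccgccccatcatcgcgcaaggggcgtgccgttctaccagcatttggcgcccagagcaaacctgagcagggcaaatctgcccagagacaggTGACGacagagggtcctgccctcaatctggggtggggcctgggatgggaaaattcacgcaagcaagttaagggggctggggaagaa
B2m promoter: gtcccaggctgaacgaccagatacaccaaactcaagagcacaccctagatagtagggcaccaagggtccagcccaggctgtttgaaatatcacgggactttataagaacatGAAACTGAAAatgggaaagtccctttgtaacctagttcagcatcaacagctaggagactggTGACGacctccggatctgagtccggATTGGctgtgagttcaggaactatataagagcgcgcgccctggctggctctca
Capitals mark matches, on either strand, to the motifs searched. These were GAAA followed after any 2 bases by a second GAAA (core of the interferon-stimulated response element), TTCNNNGAA (the gamma-activated site), the CCAAT box, the sequence TGACG (core of the X2 box of class I promoters and of the cyclic AMP response element) and the nuclear receptor half-site AGGTCA. The matches in the stretches shown did not overlap one another.

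Both stretches hold 1 CCAAT match and 1 TGACG match, with the TGACG match starting 86 bases before the Tap1 start site and 78 bases before that of B2m. B2m holds a match to the paired GAAA motif besides, starting 139 bases before its start site. In the windows of 300 bases, 250 before to 50 after the start, that the table gives for 8 of the 10 members (9 windows), TGACG was found for B2m, Psmb9, Psme2 and Tap1, against 20.8% of 32851 mouse windows. CCAAT was found for B2m, Psmb9, Tap1 and Tapbp, against 37.4% of windows. The paired GAAA motif was found for B2m and Psme1, against 3.44%, that of the gamma-activated site for Psmb8, against 8.30%, and the nuclear receptor half-site for Psmb10, against 16.3%. The Tap1 and Psmb9 windows overlap by 275 bases, so their matches are not independent, and a match is a description of letters, not a site shown to be used.

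The arrays were not alike in general level. Array medians lay between 16.2 and 23.7 arbitrary units, and over all probe sets tested the log2 difference of RA minus Ro had a median of -0.21, that of Ro minus Control 0.29 and that of RA minus Control 0.09. The log2 difference of a gene is therefore given relative to the median probe set, that of a list relative to the median gene, and signals as deposited. The limma p-values given below test the difference before that median is taken off, so they still hold the general shift. Control replicate 2 stood apart, with correlations of log2 values to the other 5 arrays of 0.911 to 0.917, where those 5 correlated with each other at 0.961 or more. Of the 9 T cell markers looked for, 8 were measured, and their summed signal was 19467 to 30214 in Control, 26700 to 28450 in RA and 28755 to 32535 in Ro. The 6 measured B cell markers summed to at most 162 on any array.

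RA was first set against Ro, to see which of these genes differ between cultures with those labels. By value relative to the median probe set, the Tap1, tapasin and Nlrc5 transcripts lay lower in RA, and the immunoproteasome subunits Psmb9 and Psmb10 and the activator chain Psme1 less so. Psmb8 and Tap2 lay within 0.1 log2 of that median, and B2m slightly above it. For 7 of the 9 genes both RA signals were below both Ro signals, against 38.1% of the 12986 genes tested and 48.2% of the 1948 genes at least as bright on average as the dimmest member. With each array scaled to 1 median of the probe sets tested, this was so for 6 of 9, against 20.4% and 21.5%. No member had both RA signals above both Ro signals, against 6.32% of genes as deposited and 14.7% after scaling. None of the 13 member probe sets tested passed an adjusted p of 0.05.

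Tap1, whose product pairs with that of Tap2, read 1717 and 2091 with RA, and 3559 and 2983 with Ro. The groups did not overlap, and the mean was 1.72-fold higher in Ro (3271 ± 407 against 1904 ± 264, SD, n = 2). Tap2 had 834 and 695 in RA and 810 and 1078 in Ro, and here the groups overlapped, since RA replicate 1 lay above Ro replicate 1. Tapbp, which edits the peptide load of the class I molecule, had 2494 and 3130 in RA and 5077 and 5137 in Ro. It was 1.82-fold higher in Ro (5107 ± 42.9 against 2812 ± 450, SD, n = 2), and the 2 Ro arrays agreed closely. B2m, the invariant light chain, had 7668 and 6947 in RA and 7542 and 7589 in Ro, with overlap. B2m was among the brightest transcripts, above the 99th percentile of every array.

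**Figure D1:**
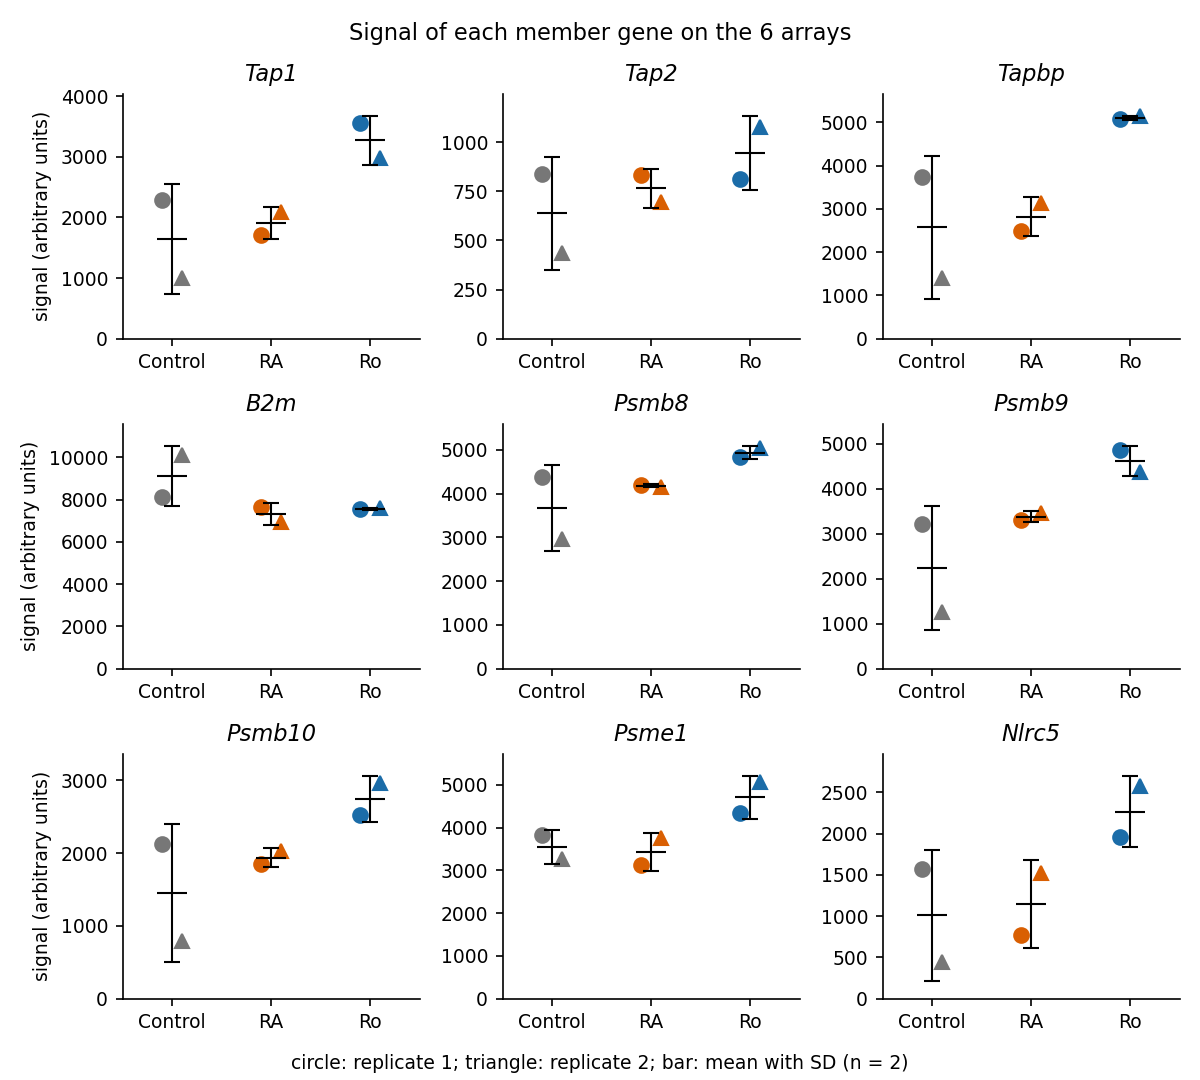
Signal in arbitrary units, on a linear axis from 0, of the probe set that stands for each of the 9 genes on the 6 arrays; circles are replicate 1, triangles replicate 2, and bars the mean with SD (n = 2). Both Ro points lie above both RA points for Tap1, Tapbp, Psmb8, Psmb9, Psmb10, Psme1 and Nlrc5, and the 2 Control points are far apart for most genes.

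Among the catalytic subunits, Psmb9 read 3303 and 3463 with RA, and 4857 and 4379 with Ro, without overlap and 1.36-fold higher in Ro. Psmb10 had 1845 and 2031 in RA and 2518 and 2968 in Ro, without overlap and 1.42-fold higher in Ro. Psmb8 had 4203 and 4159 in RA and 4826 and 5045 in Ro. It was 1.18-fold higher in Ro, which left -0.03 on the log2 scale relative to the median probe set, and after scaling the groups overlapped. Psme1, a chain of the PA28 ring that opens the proteasome gate, had 3122 and 3751 in RA and 4352 and 5065 in Ro, 1.37-fold higher in Ro. Nlrc5 had the widest spread and the largest fold: 766 and 1526 in RA against 1959 and 2572 in Ro, 1.98-fold higher in Ro. The 2 RA arrays differed from each other about as much as the groups did.

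In limma fitted to all 6 arrays, the log2 differences of RA minus Ro were -0.84 (SE 0.61) for Nlrc5, -0.66 (SE 0.43) for Tapbp and -0.57 (SE 0.40) for Tap1, each with an adjusted p of 0.999. Those of Psmb10, Psme1 and Psmb9 were -0.28 (SE 0.45), -0.24 (SE 0.22) and -0.23 (SE 0.41). Tap2, Psmb8 and B2m stood at -0.08 (SE 0.40), -0.03 (SE 0.24) and 0.16 (SE 0.18). In that fit 0 of 29507 probe sets passed, 0% of those tested, and 366 (1.24%) had an unadjusted p under 0.05 and lay lower in RA, among them 0 of 13 of the members. The limma fit of the RA and Ro arrays alone, which leaves out the unlike Control arrays, gave nearly the same differences with smaller errors. For Tapbp it gave -0.65 (SE 0.16, adjusted p = 0.360), for Tap1 -0.56 (SE 0.18, adjusted p = 0.554) and for Nlrc5 -0.83 (SE 0.33, adjusted p = 0.664). These adjusted p values belong to the differences before the median is taken off, -0.87, -0.78 and -1.05. With quantile normalization of the 4 arrays the median difference was -0.00023. There limma gave adjusted p values of 0.726 for Tapbp, 0.974 for Tap1 and 0.974 for Nlrc5. In the fit of the 4 arrays as deposited, 0 member probe sets passed, while 12 of 27878 passed in all, 0.043%. At an unadjusted p under 0.05 and lower in RA stood 8 of 13 member probe sets in that limma fit, against 6.35% of all probe sets. These differences still hold the general shift, a median of -0.22 in that fit. Psme1 passed on -0.46 (unadjusted p = 0.0207 in limma), where its value relative to the median probe set was -0.24. No such share was taken among probe sets as bright as the members, so the count is not read as a result about them. An exact permutation test of 2 arrays against 2 cannot go below a two-sided p of 0.333.

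**Figure D2:**
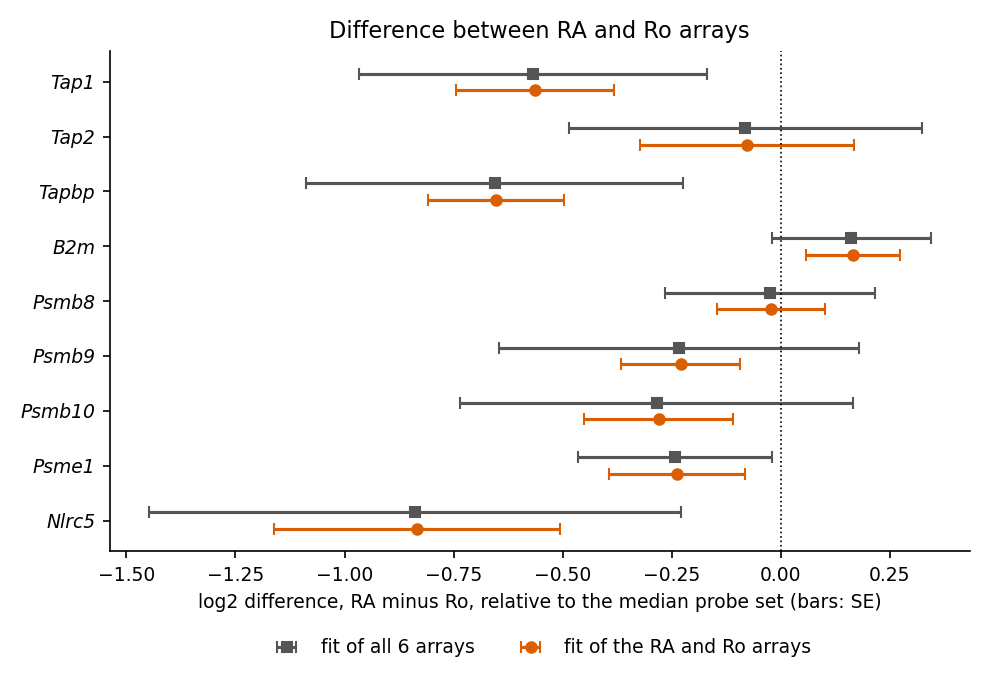
Log2 difference of RA minus Ro, relative to the median probe set, for the 9 genes, with bars for the SE; squares are the limma fit of all 6 arrays and circles that of the RA and Ro arrays. Nlrc5, Tapbp and Tap1 lie farthest below 0, at -0.84, -0.66 and -0.57 in the fit of all arrays, and B2m lies at 0.16.

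Without Ro replicate 1 the fit of the remaining RA and Ro arrays called Tapbp (-0.58) and Nlrc5 (-0.95), and without Ro replicate 2 it called Tapbp (-0.69) and Tap1 (-0.73). In all, 551 of 26730 probe sets (2.06%) were called in the first and 425 of 26660 (1.59%) in the second. Both limma fits were chosen after seeing the data, and the lone Ro array is taken to vary as the RA pair does. Over all 21 alternatives tried, Tap1, Tapbp, Psmb9, Psmb10, Psme1 and Nlrc5 lay below the median probe set in 21, Psmb8 in 16, Tap2 in 15 and B2m in 0. Quantile normalization gave a median of -0.30 over the 9 members, where the values as deposited gave -0.22 and the 1948 bright genes had 0.02 and 0.02.

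The other probe sets of the members gave mixed detail. The second Tapbp probe set read 477 and 383 with RA, and 792 and 842 with Ro, 1.90-fold higher in Ro and close to the 1.82-fold of the first. The second Psmb8 probe set, marked as cross-hybridising, had 84.6 and 76.3 in RA and 152 and 116 in Ro, a 1.67-fold difference where the first had 1.18-fold. The second B2m probe set had 6812 and 5391 in RA and 6984 and 7285 in Ro, without overlap but with a fold of only 1.17. For Tap1, a dim probe set had 37.5 and 40.6 in RA and 44.8 and 49.7 in Ro, and the other two, at 6.06 or less on all arrays, were too dim to be tested, so 13 of the 15 member probe sets were tested.

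Summed markers of some other cells also lay lower in RA. The 6 mast cell and basophil markers summed to 1290 to 1478 in RA and 3636 to 5517 in Ro. The 2 CD8 T cell markers summed to 58.9 to 93.1 and 139 to 187, of which Cd8a was dim (4.29 and 6.47 against 15.6 and 23.2). The 2 measured NK cell markers of 4 summed to 420 to 508 and 519 to 1735. Most of that sum was Nkg7, which overlapped, at 409 and 486 in RA and 1545 and 479 in Ro. Klrk1 had 11.4 and 21.9 against 191 and 39.6. The 7 myeloid and dendritic cell markers summed to 466 to 490 in RA and 377 to 994 in Ro, with overlap. The defining NK cell markers Ncr1 and Klrb1c had no tested probe set. The labels name only CD4+ T cells. Whether other cells were present, or had a part in the differences above, was not tested. In RNA from a whole culture, fewer cells of a type and less RNA per cell cannot be told apart.

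The comparisons with Control ask how the RA and Ro cultures each differ from those labelled Control, and both use the same Control arrays. Those arrays were unlike each other in general, so the group mean says little. With each array centred on its median, the 2 Control arrays differed by a median absolute 0.66 log2 over all genes. The RA arrays differed by 0.29 and the Ro arrays by 0.34. Tap1, Tap2, Psmb8, Psmb9 and Psme1 lay within that 0.66, at 0.45, 0.21, -0.17, 0.62 and -0.50 (replicate 1 minus replicate 2). Tapbp (0.68), Psmb10 (0.70), Nlrc5 (1.07) and B2m (-1.05) lay beyond it. Signals as deposited also hold the difference in general level between the 2 arrays. Nlrc5 had 1567 on Control replicate 1 and 448 on Control replicate 2, a 3.50-fold difference. Psmb10 had 2126 and 787, Tapbp 3733 and 1408, Psmb9 3210 and 1263, and Tap1 2284 and 1008, so that 5 of 9 genes differed by more than 2-fold in this direction, against 29.2% of all genes tested. As deposited, Tap2 (839 and 435), Psmb8 (4370 and 2967) and Psme1 (3823 and 3267) were lower on replicate 2 by less. After scaling, Psmb8 (3771 and 4335) and Psme1 (3298 and 4774) were higher on replicate 2. B2m was higher there even as deposited, at 8135 and 10135, the highest of its 6 signals being on Control replicate 2. With each array centred on its median, Control replicate 2 was the lowest of the 6 arrays for 6 of the 9 genes, against 27.3% of all genes tested. As deposited it was lowest for 7 of 9, against 50.6%.

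**Figure D3:**
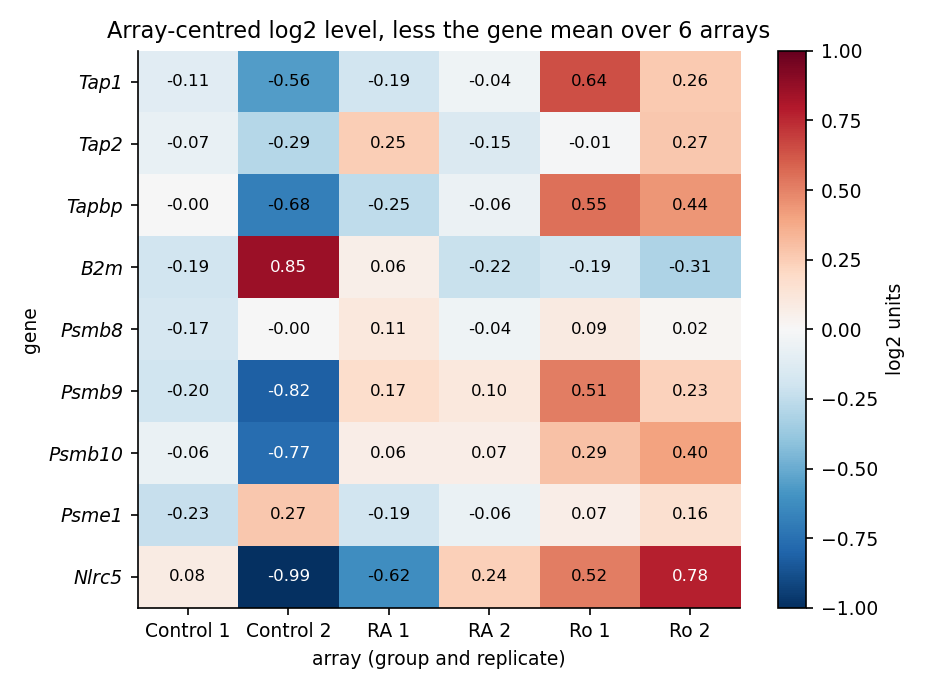
Heat map of the array-centred log2 level of each gene (rows) on each array (columns), less the mean of the gene over the 6 arrays; red is above and blue below that mean. Control 2 is the deepest blue for Nlrc5 (-0.99), Psmb9 (-0.82), Psmb10 (-0.77) and Tapbp (-0.68) but red for B2m (0.85), and the Ro arrays are red for Tap1, Tapbp, Psmb9, Psmb10 and Nlrc5.

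Between Ro and Control, both Ro signals were above both Control signals for 7 of 9 genes as deposited, against 31.1% of all genes, and for 6 of 9 after scaling, against 22.8%. Among the 1948 bright genes these shares were 39.9% and 28.3%. Control lay above Ro for 1 of 9, B2m, as deposited and for 0 after scaling, against 8.3% and 12.1% of all genes. The limma log2 differences of Ro minus Control in the fit of all 6 arrays were 1.13 (SE 0.61) for Nlrc5, 0.91 (SE 0.41) for Psmb9, 0.87 (SE 0.43) for Tapbp, 0.82 (SE 0.40) for Tap1 and 0.79 (SE 0.45) for Psmb10. Psme1 stood at 0.12 (SE 0.22) and B2m at -0.55 (SE 0.18). The adjusted p was 0.661 or 0.663 for every member, 0 of 29507 probe sets passed, and 1201 of all (4.07%) had an unadjusted p under 0.05. The median over the 9 members was 0.76, but 0.24 without Control replicate 2 and 1.16 without Control replicate 1. Without Control replicate 1 limma called 10 member probe sets of 8 genes among 7211 of 28904 in all (24.9%), 9 of them higher in Ro, with the spread of the lone Control array taken from the RA and Ro pairs.

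Between RA and Control the members showed no common direction that outlasted the choice of Control array. As deposited, RA was above Control without overlap for 1 of 9 genes, Psmb9 (3303 and 3463 against 3210 and 1263), and below it for 1, B2m, against 11.9% and 14.9% of all genes. After scaling the counts were 2 and 0, against 19.1% and 10.3%. The limma log2 differences of RA minus Control ran from -0.40 (SE 0.18) for B2m to 0.66 (SE 0.41) for Psmb9 in the fit of all 6 arrays, with adjusted p values from 0.977 to 0.988. There 0 of 29507 probe sets passed and 535 (1.81%) had an unadjusted p under 0.05. The median over the 9 members was 0.22, -0.02 without Control replicate 2 and 0.58 without Control replicate 1. Without Control replicate 1 limma called 7 member probe sets of 5 genes among 4372 of 28904 in all (15.1%), 6 of them higher in RA. Without Control replicate 2 the differences of Tap1, Tapbp and Nlrc5 turned to -0.07, -0.22 and -0.34. Those of Psmb8, Psmb9, Psmb10 and Tap2 stayed above the median probe set in all 12 alternatives, at lowest 0.04, 0.27, 0.06 and 0.03.

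The constitutive proteasome gives a measure that multiplying all signals of an array cannot move. Psmb5, Psmb6 and Psmb7, the housekeeping counterparts of Psmb8, Psmb9 and Psmb10, had log2 differences of RA minus Ro of -0.01 (SE 0.25), 0.11 (SE 0.28) and 0.18 (SE 0.25) in the limma fit of all arrays, and their signals ran from 1227 to 2594. The log2 ratio of Psmb9 to Psmb6, taken on each array and less its mean over the 6, was 0.12 and 0.18 with RA, and 0.44 and 0.54 with Ro. The groups did not overlap and their means differed by -0.34. For Psmb10 to Psmb7 it was -0.25 and 0.21 in RA and 0.28 and 0.62 in Ro, a difference of -0.47 without overlap. For Psmb8 to Psmb5 it was 0.14 and 0.04 against 0.10 and 0.12, with overlap and a difference of -0.02. Psme1 set against Psme3, the chain of a related activator ring of the nucleus, gave 0.05 and 0.10 against 0.52 and 0.29, a difference of -0.33 without overlap. The same ratios on Control replicate 2 were -1.49 for Psmb9, -1.07 for Psmb10, -1.07 for Psme1 and -0.65 for Psmb8, the lowest of the 6 arrays in each case. On Control replicate 1 they were 0.22, 0.21, 0.11 and 0.26. A low ratio need not mean a low inducible gene. With each array centred on its median, Psme1 was at its highest of the 6 arrays on Control replicate 2 (0.27). Psmb8 was there at about its own mean (-0.00058), and Psmb5 had its highest signal of the 6 arrays, 2108. These pairs were set after the values of the members were known, and no test was made of them. No share of other gene pairs whose ratios separate RA from Ro is given, so the lack of overlap is description only.

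**Figure D4:**
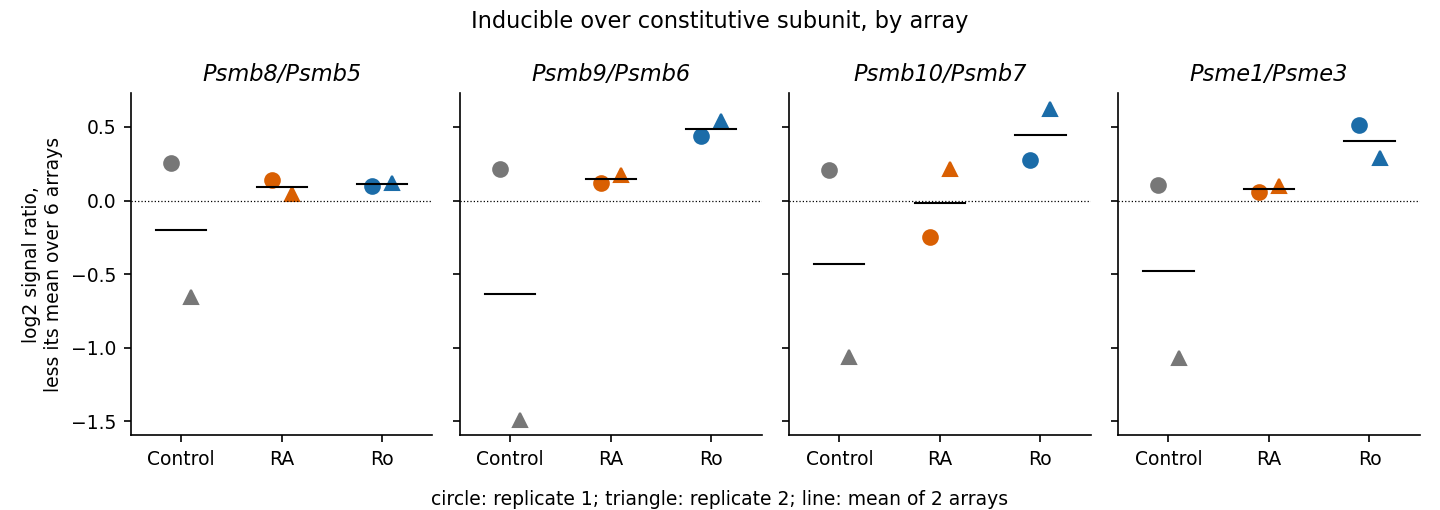
Log2 ratio of the signals of each inducible subunit and its counterpart on each array, less the mean of that ratio over the 6 arrays; circles are replicate 1, triangles replicate 2 and lines the mean of 2 arrays. Psmb9/Psmb6, Psmb10/Psmb7 and Psme1/Psme3 are higher on both Ro arrays than on both RA arrays, Psmb8/Psmb5 is level between RA and Ro, and Control replicate 2 is lowest in all 4 panels.

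The rest of the proteasome stood near the median gene between RA and Ro. The 11 other 20S core subunits had a median of 0.07 relative to the median gene, from -0.05 to 0.15, and the 17 measured members of the 19S regulatory particle 0.08, from -0.26 to 0.34. In all lists named here 0 genes passed an adjusted p of 0.05 in limma in either direction, with all 6 arrays or with the RA and Ro arrays alone. The 9 immune members had a median of -0.22, from -0.81 to 0.19, with 7 of 9 below the median gene. Of 17 class I heavy chain genes and relatives looked for, 9 had a probe set of their own and 8 were tested, with a median of 0.02 and 5 of 8 above the median gene. H2-M3, which presents formylated peptides, had 641 and 869 in RA and 1141 and 1226 in Ro, and H2-T24 had 118 and 168 against 254 and 288. H2-T3, a dim nonclassical gene, lay the other way at 0.48, with signals of 20.4 and 13.99 against 34.1 and 4.35, which overlapped.

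Of the loading chaperones and peptidases, 5 of 9 measured were below the median gene, with a median of -0.02. Tapbpl, a tapasin relative that edits peptides outside the pump complex, had 367 and 514 in RA and 778 and 1101 in Ro, and Erap1, the peptidase that trims peptides in the endoplasmic reticulum, 226 and 336 against 425 and 502. Pdia3, a chaperone of the loading complex, had 3122 and 1207 in RA and 1752 and 1775 in Ro, so its RA arrays lay on either side of the Ro arrays.

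Among 14 measured transcription factors of class I genes the median was -0.22, from -1.60 to 0.38. Stat2, a mediator of type I interferon signals, had 88.5 and 221 in RA and 533 and 484 in Ro. Irf1, which activates Tap1, Psmb9 and other genes under interferon gamma, had 1529 and 2460 in RA and 3120 and 4718 in Ro. Irf8 had 80.0 and 194 against 173 and 353, which overlapped. Of the 14, 7 were lower in RA without overlap as deposited and 6 after scaling, against 38.1% and 20.4% of all genes. After scaling 1 was higher in RA without overlap, against 14.7%. Of the 9 interferon ligand and receptor genes, 6 were below the median gene. Without overlap, 3 were lower in RA as deposited and 2 after scaling, against 38.1% and 20.4% of all genes. In the other direction 1 was higher in RA either way, against 6.32% as deposited and 14.7% after scaling. Ifng had 3.15 and 25.5 in RA against 17.6 and 85.5 in Ro, which overlapped. Socs1, an inhibitor of interferon signalling, had 183 and 198 against 350 and 472. Ifngr2, a chain of the interferon gamma receptor, lay the other way, at 203 and 220 with RA, and 126 and 160 with Ro. The 6 measured interferon gamma inducible GTPases were all lower in RA without overlap, against 38.1% of all genes as deposited and 20.4% after scaling, with a median of -1.24 relative to the median gene, and Gbp2 had 981 and 1460 in RA and 5410 and 3926 in Ro. No difference between the lists was tested.

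**Figure D5:**
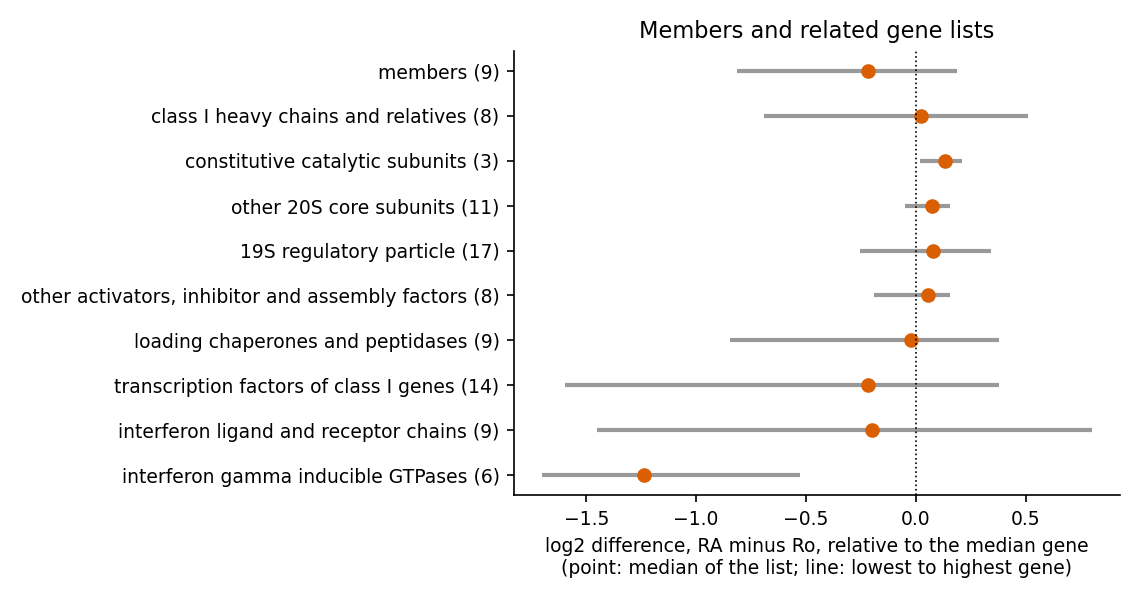
Log2 difference of RA minus Ro relative to the median gene, in the fit of all 6 arrays, for the 9 members and 9 related gene lists, with the number of genes measured in brackets; points are the list median and lines run from the lowest to the highest gene. The members lie at -0.22, the constitutive and regulatory proteasome lists at or above 0, and the interferon gamma inducible GTPases at -1.24.

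The members lay at unlike distances from their mean profile over the 6 arrays. The root-mean-square distance from the mean profile of the 9 members was 0.18 log2 units for Tap1 and for Tap2, 0.20 for Psmb8 and Psmb10, 0.22 for Tapbp, 0.25 for Psmb9, 0.27 for Psme1, 0.44 for Nlrc5 and 0.58 for B2m, where the median over all genes was 0.45. Each member is part of that mean, and Nlrc5 and B2m still stood near or beyond the median distance. The distance grows with the size of a gene's changes, so it does not tell an unlike shape from a wider swing. Nlrc5 had the sign of the mean on Control replicate 2 (-0.99, mean -0.33), RA replicate 1 (-0.62, mean -0.07) and both Ro arrays. On Control replicate 1 (0.08, mean -0.11) and RA replicate 2 (0.24, mean -0.02) it did not. B2m had the opposite sign on Control replicate 2 (0.85), on RA replicate 1 (0.06, mean -0.07) and on both Ro arrays (-0.19 and -0.31). The 5 genes outside the members that lay closest to the mean profile were Flna (0.04), Rhog (0.05), Zfp384 (0.05), Suox (0.05) and Atp6v0d1 (0.05). Flna, an actin cross-linker, had 1065 and 572 in Control, 855 and 1048 in RA and 1299 and 1440 in Ro. It was lowest on Control replicate 2 and highest in Ro, as Tap1 was. That likeness follows from how Flna was picked, since the mean profile itself is lowest on Control replicate 2 and highest in Ro. As deposited, 50.6% of all genes tested were lowest on Control replicate 2.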

How the data were processed

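Each deposited value is the linear intensity of a probe set, for which the authors used MAS5, per the submitters' processing notes. Its version and scaling target are not given in the sources used. Titles gave groups and replicate numbers, and Ro and RO were taken as 1 group. The members, the related lists and the tests were chosen with earlier results of these data known.

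The 64 control probe sets of 45101 were left out, and probe sets above the 40th percentile of the array on 2 or more arrays were tested. All 29507 such probe sets were fitted in R 4.3.3 with limma 3.58.1 (lmFit, then eBayes with a trend over intensity) on log2(signal + 3.00), the pseudocount being the 20th percentile of all values; it makes differences of dim genes look smaller. Tests were two-sided, with Benjamini-Hochberg adjustment over all probe sets tested and a threshold of 0.05. The fit was tested on simulated arrays with equal random noise, no shift between arrays and no array set apart. Those settings differ from these data, so that test does not show how well differences of the size given here would be called. A gene is given by the brightest of its tested probe sets (mean log2 value), with cross-hybridising IDs passed over where another existed. Members and constitutive catalytic subunits were named whatever their values, up to 3 genes of each other list by the largest difference of RA minus Ro, and 5 genes by nearness of pattern. Some of these are given by count only. Alternatives were other pseudocounts, quantile normalization, other filters, no trend, a replicate block, a fit of the 4 arrays compared and leaving out each array. Precision is limited by the number of arrays.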

Additional observations from a re-analysis of the deposited data

How the results depend on the processing

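Between RA and Ro the median over the 9 members stayed below 0 under every alternative tried, from -0.30 to -0.16, and 0 member probe sets were called in each fit except those of the RA and Ro arrays without Ro replicate 1 or 2, where 2 were called each time (0 to 2 over those leaving out 1 array). The count over all probe sets, 0 with all 6 arrays, was 12 with only the 4 arrays compared, 12 without Control replicate 1 or 2, 9 with quantile normalization of the 4 arrays, and 0 without RA replicate 1 or 2, 551 without Ro replicate 1 and 425 without Ro replicate 2 on the 4 arrays. Near-zero differences turned sign: Tap2 to 0.0022 with quantile normalization (0.0027 on the 4 arrays), and on the 4 arrays to 0.12 without RA replicate 2 and 0.0854 without Ro replicate 2. Leaving out 1 of the arrays of the full fit gave Tap2 -0.28 to 0.12. Psmb8 turned to 0.0073 with the filter at the 60th percentile and, on the 4 arrays, to 0.0496 without RA replicate 2 and 0.0253 without Ro replicate 1, and leaving out 1 array of the full fit gave -0.0977 to 0.0483.

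Against Control, leaving out 1 array moved the count of all calls from 0 to between 0 and 4372 for RA and between 0 and 7211 for Ro, that of member probe sets to between 0 and 7 and between 0 and 10, and the member median to between -0.0165 and 0.58 and between 0.24 and 1.16. Leaving out 1 array gave RA minus Control from -0.0724 to 0.55 for Tap1, -0.22 to 0.63 for Tapbp, -0.34 to 0.91 for Nlrc5, -0.83 to 0.0401 for B2m and -0.29 to 0.0368 for Psme1, each turned in sign without Control replicate 2. For Nlrc5 it also turned without RA replicate 2 (-0.15), and Ro minus Control of Psme1 turned to -0.0229 without Control replicate 1, and was 0.25 without Control replicate 2.

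The replicate numbers do not pair the samples by any label, and the replicate 1 minus replicate 2 differences correlated across probe sets at 0.25 between RA and Ro, 0.0048 between Control and RA and -0.03 between Control and Ro. With the replicate block, 0 probe sets were called in each comparison, the same as without it. On the 4 arrays of RA and Ro the block gave 106 calls, with 0 of them in member probe sets. For RA and Ro, the fits without a Control array of the 6, and those of the 4 arrays with 1 left out, a block, quantile normalization or no trend, were chosen after the data were seen.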

Other observations

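Control replicate 2, the array with most class I pathway genes at their lowest, had the gene for interferon gamma itself at its highest. Ifng had a signal of 2054 there, 3.86 on Control replicate 1 and 3.15 to 85.5 on the RA and Ro arrays. Irf8, an interferon-induced transcription factor, had 1872 on that array and 97.2 on Control replicate 1, and Socs1 had 735 and 273. The interferon gamma inducible GTPases were split: Gbp2 had 3309 on Control replicate 2 and 1366 on Control replicate 1, whereas Irgm1 had 305 and 1311 and Gbp3 had 75.8 and 278. The label of that array lists an antibody against interferon gamma in the culture, and the relation of these values to it was not tested. Several T cell genes were lower on it as well, Cd4 with 463 against 1141 to 1791 on the other 5 arrays, while Cd2 had 4348 against 3695 to 4999.6 there. Nkg7, a gene of cytotoxic granules, had 2532 on it and 339 on Control replicate 1. The mast cell and basophil markers summed to 154 on Control replicate 2 and 3649 on Control replicate 1.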
